A study of Gallus gallus with 77 samples.

Results

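The comparison of laser-wounded with unlesioned cochlear epithelium at 3 hrs is the last of 4 time points in a laser wound time course of the chick inner ear. Its members are the 20 arrays, of 77 in the time course, whose titles name the 3 hr recovery. The laser group was cultured sensory epithelia (SE) isolated from the cochleae of young posthatch White Leghorn chicks, scored with linear wounds by a pulsed laser microbeam and returned to the incubator for 3 hrs. The control group was unlesioned SE cultures of the same age in culture, kept beside the microscope during the wounding and then incubated for the same time. Both groups came from untreated animals of one breed, both had been grown on fibronectin in serum-containing medium for days before the wound, and each biological sample pooled several cultures. A wound crosses only a strip of the culture, so that each RNA came from wounded and distant cells together, and fewer cells of a type cannot be told apart from less RNA in each of them.

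There were 2 biological replicates, with 12 arrays for replicate 1 and 8 for replicate 2. In each replicate the laser RNA was labelled with Cy3 on one set of arrays and with Cy5 on the other, 6 and 6 in replicate 1 and 4 and 4 in replicate 2. All arrays of a biological sample measured the same amplified RNAs again or with exchanged dyes, so that 2 is the number of independent samples and p-values measure only the spread between such samples. The arrays carried oligonucleotide probes for human transcription factor (TF) genes, spotted in duplicate, and chick cDNA was hybridized to them across species. Gene names are therefore those of the human array design, and genes with close relatives, such as zinc finger, *HOX* and ubiquitin genes, may share signal. Probe sequences are not used here.

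Birds replace lost auditory hair cells, the mechanosensory cells of the SE, from the supporting cells that surround them. A cut through a cultured SE is first closed by cell spreading and migration and later by proliferation near the wound. TFs are the proteins that read DNA and set which genes a cell transcribes, and wounding of many epithelia is known to switch on immediate-early TFs such as FOS, JUN and EGR1 within the first hour. The 3 hr comparison asks which TF genes differed between wounded and unlesioned SE at that stage.

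Over the 20 arrays the median spot signal lay between 835 and 1820 (median 1373), which was 2.13 to 3.98 times the local background. The 2 biological replicates, not the number of arrays, limit the precision for the wound. The log2 ratios of duplicate spots correlated at 0.345 to 0.726 within an array (median 0.528). The arrays came from 2 days written in the scanner file headers, 8 arrays from header day 1 and 12 from header day 2, and each day held both replicates and both dyes. In replicate 2, the image names of the 4 arrays of header day 2 gave no biological replicate, and the titles were followed. Hair cell markers (*ATOH1*, *POU4F3*, *GFI1*, *BARHL1*) had signals of 1201 to 2179, supporting cell markers 1087 to 3283, muscle markers 943 to 2246 and blood cell markers 967 to 3381. The ranges overlapped, so that signal across species did not set the markers of the SE apart from those of other tissues.

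Of 1507 genes on the array, 1503 were tested, and none passed the adjusted threshold at 3 hrs (0% at an adjusted p under 0.05 and over 1.2-fold, limma with Benjamini-Hochberg adjustment, smallest adjusted p = 0.928). At an unadjusted p under 0.05, 57 genes passed (3.79% of those tested), of which 34 were higher and 23 lower in the laser RNA. That share is not above what the threshold alone would give if no gene differed. At the same p and over 1.2-fold, 23 genes passed (1.53%), with 15 higher (0.998%) and 8 lower (0.532%). With median centring in place of the loess curve the same number split into 12 and 11, and with the deposited table of log2 ratios 2 were higher and 39 lower. The median size of a log2 ratio over all tested genes was 0.056, and only 25 genes exceeded 1.2-fold.

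The dye was measured in each gene beside the wound. The mean Cy5 over Cy3 log2 ratio with no array turned, here called the dye ratio, had a median size of 0.124 and exceeded the laser ratio in 1103 of 1503 genes. It passed an adjusted p under 0.05 in 164 genes (10.9%), 53 brighter in Cy5 (3.53%) and 111 brighter in Cy3 (7.39%), against 891 and 32 from the deposited table, whose arrays are not centred. After the ratios were turned to laser over control, the mean of the Cy3-labelled laser RNA correlated across genes with that of the Cy5-labelled laser RNA at −0.564 in replicate 1 and −0.525 in replicate 2. Means of the same dye correlated between replicates at 0.598 (Cy3) and 0.636 (Cy5), the dye ratio at 0.797, and the laser ratio at 0.040. Between header days the laser ratio correlated at 0.241, and single arrays of the same replicate and dye correlated at a median of 0.423 within a header day and 0.252 between days. These correlations are over 1503 genes of shared arrays and are descriptions.

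**Figure D1:**
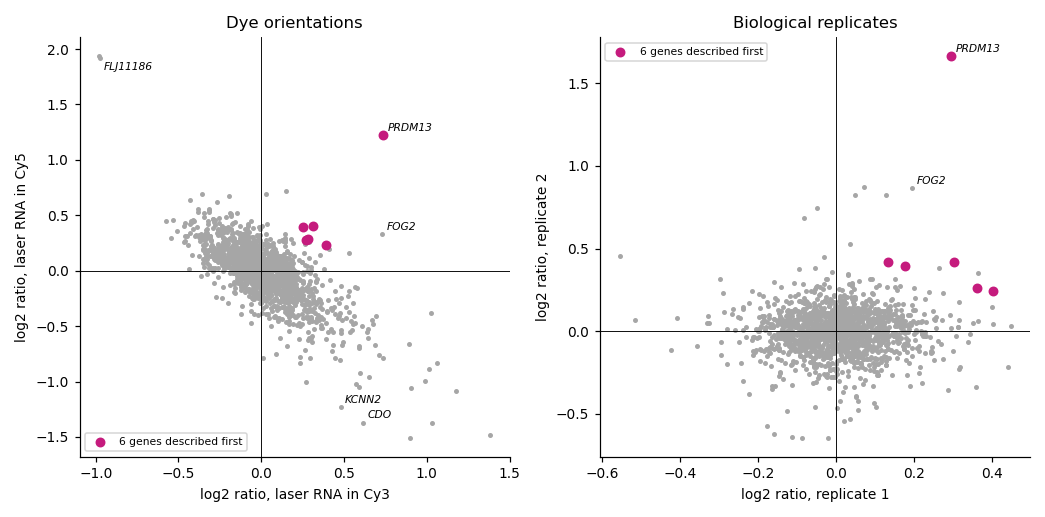
Mean log2 ratios (laser over control) of 1503 genes, with laser RNA in Cy3 against laser RNA in Cy5 (left) and replicate 1 against replicate 2 (right), each point a gene. On the left the genes run from upper left to lower right, with *FLJ11186* at the upper end and *CDO* and *KCNN2* toward the lower, and the 6 genes described first in the text (pink) sit above 0 on both axes.

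Since a dye effect turns its sign with the labelling and a difference between the RNAs does not, genes were ordered by whether all 4 means (replicate 1 and replicate 2, each in both dyes) had the same sign. That held for 113 genes (7.52%), 66 above 0 (4.39%) and 47 below 0 (3.13%). Their median size was 0.115, and in 99 of them the weakest of the 4 means was under 0.1. Median centring gave 52 above and 50 below 0, and the deposited table gave 0 and 76. An unadjusted p under 0.05 was reached by 23 of the 113 genes in limma, 14 higher and 9 lower, against 3.79% of all tested genes. The sign rule and the test use the same 4 means, so that the larger share is no separate support. Only 6 of the 113 were over 1.2-fold, all higher in the laser RNA. A partly different set of 6 had at least 1.1-fold in all 4 means, with *ZNF75A* and *LOC57862* in place of *ESR1* and *KIAA0173*. At the other time points 126 genes (30 min), 55 (1 hr) and 120 (2 hrs) had 1 sign in all 4 means, so that the count at 3 hrs lay within their range. Of 27 control names on the array 2 also had 1 sign (7.41%), and one of them, *CE1*, was at 0.22, with means of 0.16, 0.08, 0.12 and 0.53.

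The 6 genes that passed an unadjusted p under 0.05, exceeded 1.2-fold and had 1 sign in all 4 means were *PRDM13*, *NUP153*, *HSAJ2425*, *SNAPC4*, *ESR1* and *KIAA0173*. They have different roles. *PRDM13* encodes a zinc finger protein of the PR domain family that, in the mouse, helps to set inhibitory neuron types in spinal cord and retina. *NUP153* encodes a zinc finger protein of the nuclear pore basket, *SNAPC4* the DNA-binding subunit of the complex that starts small nuclear RNA transcription, *ESR1* the estrogen receptor alpha, and *KIAA0173* (*TTLL4*) an enzyme that adds glutamates to proteins such as tubulin. *HSAJ2425* is annotated by the study only as a p65 protein.

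*PRDM13* had the largest ratio of all 1503 genes. In replicate 1 its log2 ratios ran from −0.04 to 0.55 (median 0.29) over the 6 Cy3 arrays (named by the dye of the laser RNA) and from 0.02 to 0.87 (median 0.13) over the 6 Cy5 arrays. In replicate 2 they were 0.87, 0.29, 1.85 and 1.88 in Cy3 and 2.57, 2.22, 1.71 and 1.93 in Cy5. Thus 19 of 20 arrays were above 0, and 7 of the 8 arrays of replicate 2 lay at or above the highest array of replicate 1, the exception being 1 array of header day 1 at 0.29. The means were 0.25 and 0.34 in replicate 1 and 1.22 and 2.10 in replicate 2. The mean of both replicates was 0.98 (standard error, s.e., 0.271, 1.97-fold, unadjusted p = 0.00309 in limma), with the spread shared by all time points. Without replicate 2 it was 0.29 (p = 0.338), and without replicate 1 it was 1.66. In every such value only 1 sample was left at 3 hrs, and the test took it to vary as the replicates of the other time points did. The raw signals were 11694 for laser and 4173 for control in replicate 2 with the laser RNA in Cy5, and 3499 and 3634 in replicate 1. Its duplicate spots gave 0.97 and 0.99.

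*NUP153* was the most even of the 6 in its 4 means, though not when header days were kept apart. Its arrays ran from −0.18 to 0.71 (median 0.29) in replicate 1 with the laser RNA in Cy3, and from −0.17 to 0.65 (median 0.28) in Cy5. In replicate 2 they were 0.12, 0.09, 0.63 and 0.44 in Cy3 and 0.71, 0.46, 0.40 and 0.48 in Cy5. So 18 of 20 arrays were above 0, and the 2 below it were both in replicate 1, 1 in each dye. The 4 means were 0.30, 0.30, 0.32 and 0.51, giving 0.36 (s.e. 0.0931, 1.28-fold, p = 0.00188). The value was 0.42 without replicate 1 and 0.30 without replicate 2, with an unadjusted p of 0.0105 and 0.0485. The ratio was 0.34 on header day 1 and 0.39 on header day 2. On header day 1 replicates 1 and 2 had means of 0.03 and 0.11 in Cy3, against 0.63 and 0.59 in Cy5. On header day 2 they had 0.44 and 0.53 in Cy3, and 0.14 and 0.44 in Cy5. Its signal was 3.21 times background, near the level of the median array.

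*SNAPC4* was higher in replicate 1 with the laser RNA in Cy3, where all 6 arrays lay between 0.07 and 0.92 (median 0.65). With the laser RNA in Cy5 the same replicate ran from −0.23 to 0.64 (median 0.15). In replicate 2 the arrays were 0.19, −0.02, 0.57 and 0.19 in Cy3 and 0.0036, 0.23, 0.41 and 0.51 in Cy5. The dyes and replicates overlapped, with 18 of 20 arrays above 0. The means of 0.55, 0.17, 0.23 and 0.29 gave 0.31 (s.e. 0.0821, 1.24-fold, p = 0.00216), and without replicate 1 the value was 0.26 (p = 0.0520).

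*KIAA0173* lay between −0.07 and 0.41 (median 0.16) in replicate 1 in Cy3 and between −0.03 and 0.28 (median 0.07) in Cy5. In replicate 2 its arrays were 0.44, 0.29, 0.47 and 0.27 in Cy3 and 0.11, 0.74, 0.61 and 0.40 in Cy5. All 8 arrays of replicate 2 and 10 of the 12 of replicate 1 were above 0. Its duplicate spots differed in sign in replicate 1 in Cy5, at −0.080 and 0.255. The ratio was 0.27 (s.e. 0.107, 1.21-fold, p = 0.0229), and 0.13 without replicate 2 (p = 0.392). Plain background subtraction gave 0.067 (p = 0.758) and median centring 0.22 (p = 0.0941), at a signal of 3.39 times background.

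*ESR1* was among the brightest genes, at a mean signal of 18325 and 27.4 times background. Its means were 0.25 and 0.10 in replicate 1 and 0.32 and 0.47 in replicate 2. In Cy5 its raw laser signal was below that of the control, at 15657 against 19415 in replicate 1 and 21654 against 27566 in replicate 2. In Cy3 it was above the control in both replicates. The means above 0 in Cy5 thus arose after background correction and normalization, and the deposited log2 ratios gave 0.07. This was not particular to *ESR1*. In replicate 1 in Cy3 the raw laser signal was also below the control in *PRDM13*, *NUP153*, *SNAPC4*, *KIAA0173* and *HSAJ2425*. There it was 1170 against 1595 in *NUP153* and 3046 against 3175 in *HSAJ2425*, with means above 0. The arrays of *ESR1* in replicate 1 in Cy5 were split, 3 above and 3 below 0, while all 4 of replicate 2 in Cy5 lay between 0.32 and 0.68. The ratio was 0.29 (s.e. 0.0940, 1.22-fold, p = 0.00923), and 0.18 without replicate 2 (p = 0.210). The means of *HSAJ2425* were 0.30 and 0.51 in replicate 1 and 0.21 and 0.28 in replicate 2, with a ratio of 0.32 (s.e. 0.117, 1.25-fold, p = 0.0156). Its arrays of replicate 2 in Cy3 ran from −0.53 to 0.91, 2 above and 2 below 0, and that group of arrays was lower on header day 1 (mean −0.36) than on header day 2 (mean 0.78). Without the 4 arrays whose image names gave no replicate, *HSAJ2425* was at 0.19 (p = 0.182), and without replicate 1 at 0.25 (p = 0.180).

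**Figure D2:**
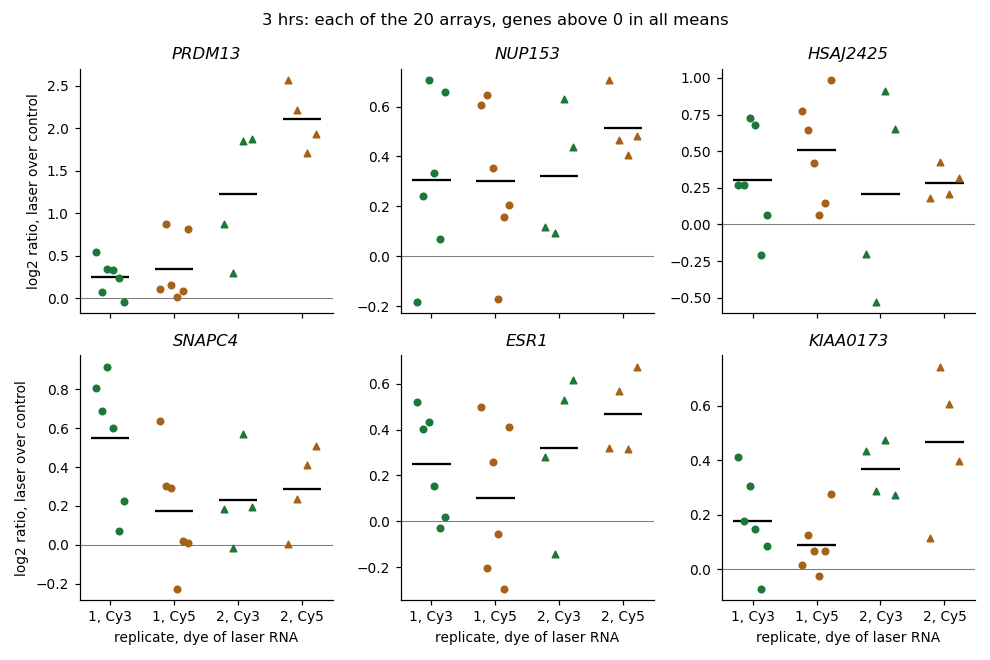
Log2 ratios (laser over control) of each of the 20 arrays for the 6 genes past the unadjusted threshold with 1 sign in all 4 means, by replicate and dye of the laser RNA, with a bar at each mean of 6 or 4 arrays. The points of *PRDM13* in replicate 2 reach 2.57, whereas the arrays of the other 5 genes lie between −0.53 and 0.99 (each panel has a scale of its own).

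Over 1.2-fold with the same sign on at least 80% of arrays, that is 16 of 20, there were 8 genes (0.532%), all above 0, against 4 above and 1 below with median centring and 0 above and 11 below from the deposited table. They were *PRDM13*, *NUP153*, *SNAPC4*, *HSAJ2425*, *KIAA0173*, *FOG2*, *CYLD* and *IK*. When both header days were kept apart, giving 8 means, 13 genes (0.865%) had 1 sign in all 8. Those above 0 were *PRDM13*, *NUP153*, *SNAPC4*, *ESR1*, *KIAA0173*, *ELAVL2* and *HOXB8*, and those below 0 included *TGFBR3*, *FLI1* (not above background in most channels, as given with its ratio), *MYCBP*, *LOC58502* and *R28830_2*. Tests over arrays adjust to smaller p-values, and there repeat hybridizations enter nearly as samples of their own. With the biological replicate as a random block, the correlation of arrays within a replicate was estimated at only −0.012. In the fit over all 77 arrays with the biological replicate as a random block, *PRDM13* (adjusted p = 0.00284), *NUP153* (0.0128) and *FOG2* (0.0177) passed in limma. With header day as the block *SSX2* passed too (0.0437). In the methods' t-test over arrays *NUP153* (0.0147) passed after adjustment. So did 2 genes under 1.2-fold, *LOC58502* (0.0147, lower) and *KIAA0173* (0.0326, higher). From the deposited table *PRDM13* and, lower, *HES7* passed (0.0454 for both).

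Among genes under 1.2-fold, those above 0 with the strongest weakest mean were headed by *ZNF75A*, a zinc finger gene with means of 0.31, 0.23, 0.21 and 0.26 and a ratio of 0.25 (s.e. 0.0840, 1.19-fold, p = 0.00965). It was above 0 on 18 of 20 arrays. *LOC57862* had a ratio of 0.23 and *AF020591* of 0.17, and both lack an annotation here. *ELF2*, an ETS family TF, had 4 means between 0.11 and 0.14 and a ratio of 0.12 (p = 0.214), at a signal of 2.17 times background. *PBX4*, a homeodomain partner of HOX proteins, was at 0.13 (p = 0.226).

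The genes below 0 in all 4 means were smaller in size, and none exceeded 1.2-fold. *R28830_2*, an unannotated gene, had a ratio of −0.26 (s.e. 0.0801, p = 0.00678), with means of −0.20, −0.13, −0.35 and −0.35. All 8 of its arrays in replicate 2 were below 0, whereas 5 of 12 in replicate 1 were above. *FLJ20321*, the castor zinc finger homolog *CASZ1*, was at −0.25 (s.e. 0.108, p = 0.0387), also with all 8 arrays of replicate 2 below 0.

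*TGFBR3*, or betaglycan, is the membrane co-receptor that presents TGF-beta ligands to the signalling receptors. Its arrays in replicate 1 ran from −0.67 to −0.18 in Cy3 and from −0.82 to 0.15 in Cy5, and its means were −0.36, −0.20, −0.12 and −0.28. Of 20 arrays, 17 were below 0, and the replicates overlapped. The ratio was −0.24 (s.e. 0.0767, p = 0.00797), −0.34 on header day 1 and −0.20 on header day 2, and without replicate 1 it was −0.20 (p = 0.105). *LOC58502* was below 0 on 19 of 20 arrays at a ratio of only −0.18 (s.e. 0.0779, p = 0.0377).

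*CDR2*, a cytoplasmic antigen of cerebellar degeneration, was at −0.19 (p = 0.0274), and *MYCBP*, which binds the amino-terminal part of MYC, at −0.15 (p = 0.105). *FHL2*, a LIM-only coregulator, was at −0.22 (p = 0.0230), with 1 mean of −0.51 (replicate 1, Cy5) and 3 between −0.15 and −0.08. *FLI1*, an ETS factor of blood and endothelium, was not above local background in 5 of its 8 mean signals (laser and control in each replicate and dye), the only gene of the 21 ranked here for which any was, and its ratio is not read. The ratio was below 0 in all 4 means, but 0.15 with plain background subtraction and 0.014 with median centring. *TCF21*, a mesenchymal bHLH factor, and *KIAA1542* were at −0.11 and −0.12, with p = 0.231 and p = 0.140. Besides *KIAA0173*, the ranked genes *LOC57862*, *ELF2*, *PBX4*, *R28830_2*, *KIAA1542* and *FLI1* had a duplicate spot of the opposite sign in some mean.

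**Figure D3:**
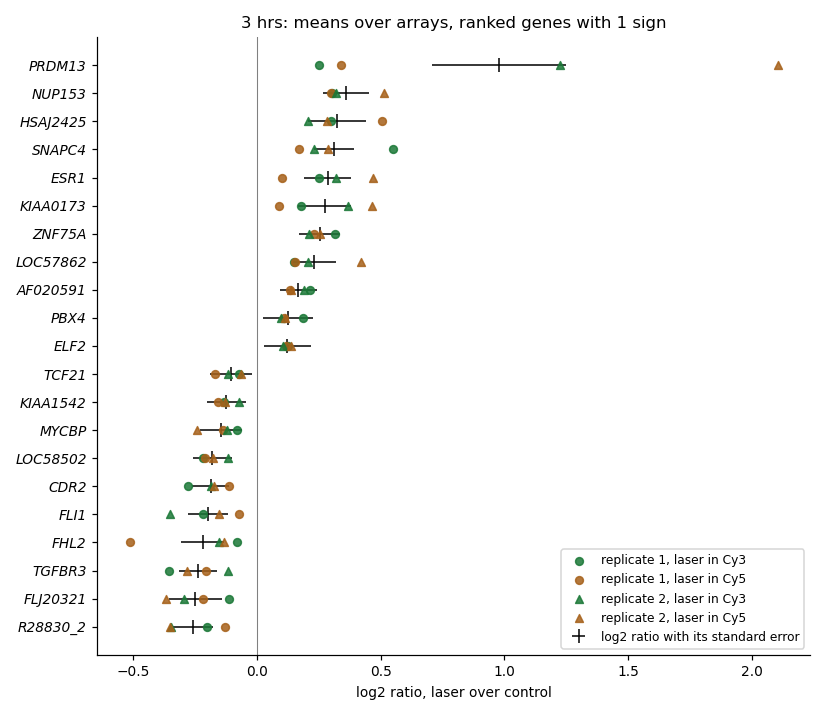
The 4 means (replicate by dye of the laser RNA) of the 21 ranked genes with 1 sign, on the log2 scale of laser over control, with the ratio and its standard error. *PRDM13* is set apart by its replicate 2, at 1.22 and 2.10, and every other mean above 0 is 0.55 or lower.

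Of the 23 genes that passed the unadjusted threshold, those 6 had 1 sign in all 4 means, 10 had opposite signs in the dyes, and 7 had another pattern. Opposite signs were common over the whole array, where only 400 of 1503 genes had the same sign in both dyes. The dye ratio passed its adjusted test in 11 of the 23 genes, against 10.9% of all genes. *FLJ11186* (*C14orf106*) had the widest gap between dyes of those described here. In replicate 1 it was between −2.59 and −0.66 on the 6 Cy3 arrays (median −1.07) and between 0.42 and 2.15 on the 6 Cy5 arrays (median 1.67). In replicate 2 it was between −1.47 and 0.17 and between 1.97 and 2.92. No array of one dye overlapped with any of the other, whichever the replicate. The laser ratio of 0.47 (s.e. 0.218, p = 0.0496) was the mean of −0.98 and 1.92, and the dye ratio was 1.45. Its brightest spot read 65491, next to the highest value of any spot (65535), so that it reached the top of the scanner's range.

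The largest ratios below 0 had the reverse arrangement. *HES7*, a bHLH repressor of the Notch pathway that cycles in the segmentation clock of mouse somites, was at −0.39 (s.e. 0.139, 1.31-fold lower, p = 0.0143), with means of 0.24 and −0.56 in replicate 1 and −0.22 and −1.03 in replicate 2. *HES2*, a relative of it, was at −0.33 (p = 0.0224), with 0.46 and −0.50 and then −0.28 and −1.01. *KCNN2*, the SK2 calcium-activated potassium channel that answers efferent input in hair cells, was at −0.38 (p = 0.0216), with 0.65 in Cy3 in replicate 1 and 0.31 in replicate 2, and −1.46 in replicate 2 in Cy5. In all 3 the laser RNA read lower when it was in Cy5, and in *HES7* alone of the 3 was replicate 2 below 0 on every array. *CDO* was at −0.38 (p = 0.0140) with a dye ratio of −0.99, and *DLX3*, a homeodomain factor of the otic placode, at −0.27 (p = 0.0109) with a dye ratio of −0.51. *UBB*, a ubiquitin gene, was at 0.67 and −0.85 in replicate 1 and at −0.14 and −1.15 in replicate 2. *GCN5L1* and *PSMC1* completed the 8 genes below 0.

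Several of the genes above 0 rested on replicate 2. *FOG2* (*ZFPM2*) encodes a zinc finger cofactor of GATA factors, and its means were 0.49 and −0.10 in replicate 1 and 0.98 and 0.75 in replicate 2. All 8 arrays of replicate 2 lay between 0.61 and 1.15, and the 12 of replicate 1 between −0.61 and 0.86. The ratio was 0.53 (s.e. 0.147, 1.45-fold, p = 0.00301), 0.20 without replicate 2 and 0.41 with plain background subtraction (p = 0.119). The dye ratio of *FOG2* was −0.20. *AF5Q31* went from −0.36 (Cy3) and 0.46 (Cy5) in replicate 1 to 0.66 and 0.99 in replicate 2. *CYLD*, a deubiquitinase that restrains NF-kappaB signalling, was at −0.03 and 0.10 in replicate 1 and at 0.58 and 0.47 in replicate 2. *ATP7B*, a copper transporter, was at 0.04 and −0.14 and then at 1.03 and 0.46. *IK* was higher in replicate 1 in Cy3 (0.58), and *ATBF1* and *SSX2* had a dye ratio past its adjusted test. *SSX2*, at 0.36 (s.e. 0.0898, p = 0.0015), had 0.36 and 0.35 in the 2 replicates, from 0.08 and −0.03 in Cy3 and 0.65 and 0.73 in Cy5.

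Immediate-early and stress genes gave no call at 3 hrs. Of 28 immediate-early genes tested, 0 passed at an unadjusted p under 0.05 in limma, 16 were above 0, and the median was 0.023 against −0.0003 over all tested genes. *FOS* was at 0.04, *JUN* at −0.07, *EGR1* at −0.06, *ATF3* at 0.03 and *MYC* at 0.047, each within 1 standard error of 0. *JUNB*, an AP1 partner of FOS, was the highest at 0.20 (s.e. 0.0991, p = 0.0696), with 0.56 and 0.03 in replicate 1 and 0.20 and −0.0014 in replicate 2. *EGR1* gave a signal of only 1.58 times background, and in the same fit it was at 0.70 at 30 min (unadjusted p = 9.18e-05). Of 24 stress genes the median was 0.027, and 2 of the 24 passed at an unadjusted p under 0.05 (3.79% of all genes did), below the fold threshold. They were *CREB1*, a TF activated by cAMP, at 0.25 (p = 0.0229), and *ATF5*, a stress-responsive relative of it, at 0.21 (p = 0.0146) and split by dye in replicate 1 (0.86 and −0.41).

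Among signalling pathways, the Notch list had the lowest median, −0.10 over 6 tested genes, of which 4 had a dye ratio past its adjusted test (10.9% of all genes did) and 2 were called (1.53% of all genes). Its calls, *HES7* and *HES2*, are those with opposite dyes described above, and *HEY1* was at −0.11 and *HEY2* at 0.04. No gene passed at an unadjusted p under 0.05 among 18 of TGF-beta signalling, 8 of WNT, 26 of NF-kappaB, STAT and IRF, or 9 of hedgehog signalling. These lists did not hold *TGFBR3* and *CYLD*, which are described above and did pass. In the lists *NFKBIA*, the inhibitor of NF-kappaB, was at 0.17 (p = 0.0545) and *GLI3*, a hedgehog effector, at 0.17. *TCF7L2*, a WNT effector, was at −0.26 and *CTNNB1* (beta-catenin) at −0.10. Signs were opposite between dyes in *NFKBIA* (Cy3 −0.05, Cy5 0.39), *GLI3* (Cy3 0.48, Cy5 −0.14) and *TCF7L2* (Cy3 0.15, Cy5 −0.68). Their dye ratios, 0.22, −0.31 and −0.415, were larger in size than their laser ratios. Those of *GLI3* and *TCF7L2* passed the adjusted test. *CTNNB1* was below 0 in both dyes (Cy3 −0.09, Cy5 −0.12). Of 27 otic genes 1 was called higher (*FOG2*) and 1 lower (*DLX3*), against 0.998% and 0.532% of all genes. *GATA3*, a GATA factor of the ear, was at −0.07, *SOX2* at 0.09 and *PAX2* at 0.09. *SOX2* also had opposite signs between dyes (Cy3 −0.26, Cy5 0.43).

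Circadian (18 genes, median −0.03), Polycomb (15, −0.02) and cell cycle (32, 0.01) genes had no gene over the fold threshold at an unadjusted p under 0.05. In the cell cycle list *TRIP15* (*COPS2*), a subunit of the COP9 signalosome, was at −0.22 (p = 0.0165), with −0.69 in replicate 2 in Cy5 and 3 means between −0.13 and 0.04. *NPAS2* and *RORA*, a clock bHLH factor and a nuclear receptor of the clock, were below 0 in all 4 means at −0.11 and −0.13. *EED*, a core Polycomb subunit, was at −0.08 and *RING1* at −0.05.

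Of 37 *HOX* genes, which give cells their position along the body axis, 0 were called, and 4 were above 0 in all 4 means (10.8% against 7.52% of all genes) and 0 below. They were *HOXB8*, *HOXC8*, *HOXD8* and *HOXD10*, so that 3 belonged to paralog group 8, a grouping noticed after the values were seen. *HOXB8* was at 0.24 (s.e. 0.114, p = 0.0577), *HOXD8* at 0.22 (p = 0.0438) and *HOXC8* at 0.19 (p = 0.0391). *HOXD8* lay almost entirely in replicate 1 (0.37 and 0.43 against 0.02 and 0.07), and *HOXC8* on header day 1 (0.42 against 0.0004). *HOXB8* was at 0.24 and 0.23 in the 2 replicates, but in replicate 2 at 0.03 in Cy3 and 0.44 in Cy5. It was at 0.39 on header day 1 and 0.11 on header day 2.

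Of 47 nuclear receptors, 8 had 1 sign in all 4 means (17% against 7.52% of all genes), 6 above 0 and 2 below. Beside *ESR1* these were *PPARA* (0.11), *RARA* (0.09), *ESRRG* (0.06), *NR4A2* (0.06) and *THRA* (0.05), and below 0 *RORA* and *RXRB* (−0.08). All but *ESR1* were within 1.5 standard errors of 0, and the list's median was 0.0019. The 160 numbered zinc finger genes had a median of 0.013, with 10 above 0 and 3 below in all 4 means (8.12% against 7.52% of all genes). In that list 4 of 160 passed at an unadjusted p under 0.05 (3.79% of all genes did), all higher and none over 1.2-fold, among them *ZNF75A*, *ZNF23* (0.20, −0.04 with plain background subtraction) and *ZNF232* (0.19). The 15 *PRDM* genes had a median of 0.055, with 11 above 0. Next to *PRDM13* the highest was *PRDM2* at 0.17 (p = 0.0907), then *PRDM1* at 0.15, and *PRDM8* was below 0 in all 4 means at −0.04.

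Of the cell type markers, whose numbers by list follow, none was called at over 1.2-fold (1.53% of all genes were). Over all these lists together 2 genes, *SPI1* and *MYOD1*, passed at an unadjusted p under 0.05 in limma (3.79% of all genes did). Medians were 0.03 for 4 hair cell genes and 0.03 for 7 supporting cell genes, 0.0010 for 8 mesenchymal, −0.03 for 6 neuronal, −0.03 for 10 blood cell and −0.09 for 5 muscle genes. *POU4F3*, a survival factor of hair cells, was at −0.16 (p = 0.0640) and *ATOH1*, which specifies hair cells, at 0.09. Between dyes *POU4F3* had opposite signs (Cy3 0.11, Cy5 −0.42), and *ATOH1* did not (Cy3 0.05, Cy5 0.13). *SPI1*, a macrophage and B cell TF, was at −0.21 (s.e. 0.0809, p = 0.0207) and below 0 in all 4 means, and *LYL1*, another blood gene, was at 0.14. *MYOD1*, a muscle regulator, was at −0.18 (p = 0.0481), while *MYF6* was at 0.11. The part of other cell types in the ratios above was not tested.

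**Figure D4:**
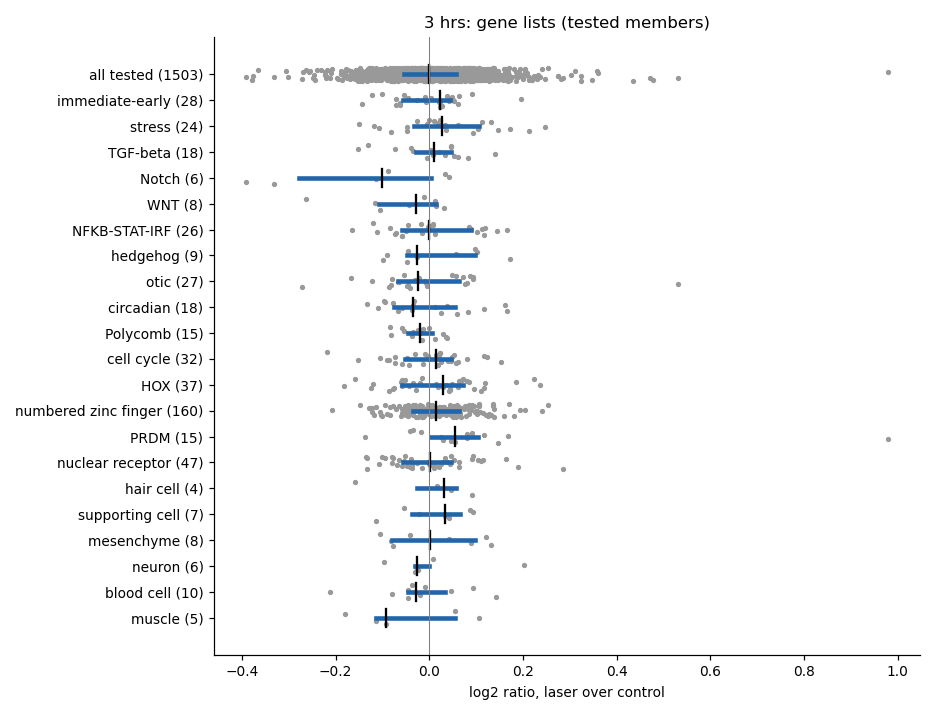
Log2 ratios (laser over control) of the tested members of each list and of all 1503 genes, each point a gene, with a vertical bar at the median and a horizontal bar over the middle quartiles. The medians lie between −0.10 (Notch) and 0.055 (*PRDM*), and *PRDM13* and *FOG2* are the farthest points.

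Against the mean of the 3 earlier time points in the same fit, 0 genes passed the adjusted test at 3 hrs (smallest adjusted p = 0.991), 33 had an unadjusted p under 0.05, and 17 also differed by over 1.2-fold (1.13%), 11 higher and 6 lower. Median centring gave 13 higher and 22 lower, and the deposited table gave 1 and 21. Time points are separate cultures with controls of their own. *PRDM13* differed by 1.11 (s.e. 0.313, p = 0.00357). It was at −0.24, 0.20 and −0.34 at 30 min, 1 hr and 2 hrs, and replicate 2 was at −0.90 at 2 hrs and at 1.66 at 3 hrs. *FOG2* differed by 0.63 (s.e. 0.169, p = 0.00247). It was at −0.0016, 0.02 and −0.32, again with replicate 2 lowest at 2 hrs (−0.62). *NUP153* differed by 0.28 (p = 0.0204) and was at 0.22, −0.08 and 0.10.

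*TGFBR3* had the opposite course. It was at 0.19, 0.02 and −0.06 before −0.24 at 3 hrs, a difference of −0.29 (s.e. 0.0886, p = 0.00582), and the replicates lay within 0.12 of each other at each time. The other 13 genes differed in the same direction as their sign at 3 hrs. Above 0 were *AF5Q31*, *LOC51058*, *CYLD*, *FLJ20039*, *ZNF232*, *BLZF1*, *ATF5* and *ZNF91*. Below 0 were *R28830_2*, *TSA1902*, *GTF2H4*, *PSMC1* and *CDO*. *CDO* and *TSA1902* were lower still at 30 min (−0.58 and −0.31) than at 3 hrs (−0.38 and −0.23). They differed from the earlier mean because they were above 0 at 1 hr (0.33 and 0.24) and 2 hrs (0.16 and 0.19). *SNAPC4*, *HSAJ2425* and *ESR1* were not among the 17 and were also above 0 at 2 hrs. *SNAPC4* was at −0.16, 0.19 and 0.42 before its 0.31 at 3 hrs, *HSAJ2425* at 0.38 at 2 hrs and *ESR1* at 0.24. Of the 66 genes above 0 in all 4 means at 3 hrs, 5 were so at 2 hrs, 0 at 1 hr and 3 at 30 min, and of the 47 below 0 there were 0, 1 and 3. Over all 1503 genes, 63, 27 and 66 were above 0 in all 4 means at 2 hrs, 1 hr and 30 min. Below 0 there were 57, 28 and 60 of the 1503.

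**Figure D5:**
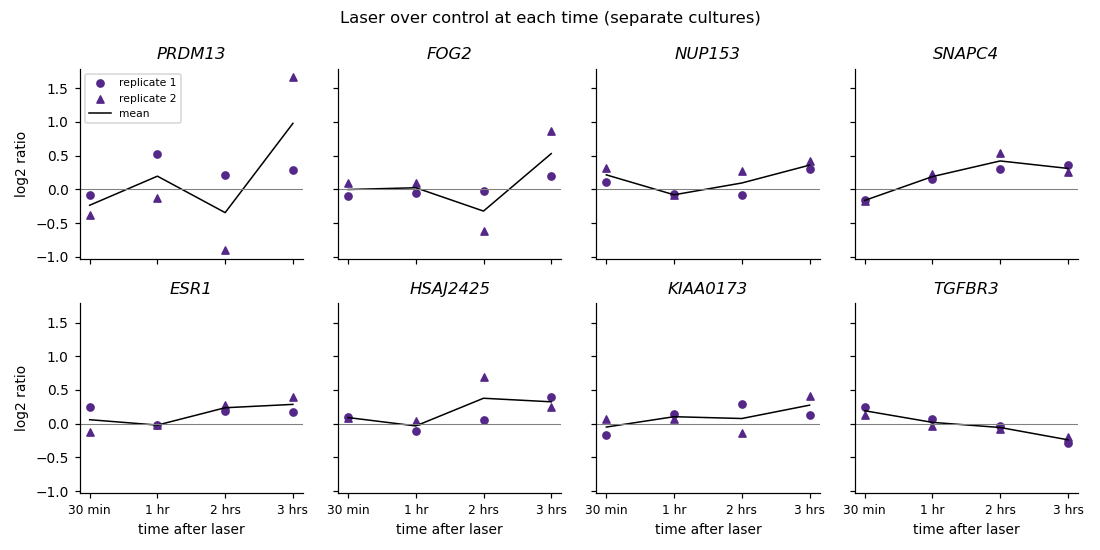
Log2 ratios (laser over control) of 8 genes along the recovery time (30 min to 3 hrs), with a point for each biological replicate and a line through the means. The line of *PRDM13* ends at 0.98 with its replicates at 0.29 and 1.66, and that of *TGFBR3* goes from 0.19 to −0.24 with both replicates close to it.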

How the data were processed

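The authors deposited intensity values from scanner software, the mean signal and mean local background of each spot in both channels, with no normalization, and a table of log2 ratios that was checked and equals the raw log2 ratios turned to laser over control (largest difference 5.77e-15). The table served as an alternative, with 3 hr column medians from −0.942 to 0.548. Titles gave the replicate and the laser dye, and image names gave the same dye on 20 of 20 arrays and the same replicate on the 16 that name one.

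Intensities were background corrected (normexp, offset 50) and loess normalized within arrays in limma 3.58.1 (R 4.3.3), with spots of 27 control names at weight 0. Duplicate spots were averaged and ratios turned where the laser RNA was in Cy3. Arrays were averaged within each dye, then dyes within each replicate. *GASC1*, *HOXC10*, *SP1* and *TITF1* did not reach a mean signal of 1000 at any of the 4 times and were not tested, leaving 1503. The 8 replicate means of 4 time points were fitted with lmFit and eBayes, and p-values adjusted over 1503 genes by the Benjamini-Hochberg method. Procedures were tested on simulated data.

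Named genes were those past the unadjusted threshold with 1 sign in all 4 means, the 10 above and the 10 below 0 with the strongest weakest mean, the 5 largest with opposite dyes, and up to 3 members of each list. A few items are not reported here and were not replaced. Others, such as the remaining unadjusted calls, were named after their values were seen. The members and lists were chosen with earlier results of these data known. Of 1503 gene names, 752 are symbols of chicken genes in RefSeq. Alternatives changed the background correction, normalization, signal filter, averaging, dyes, test, replicates and header days. Those on single header days, on the array marked as a second scan and on the 4 arrays without a replicate in the image name were chosen after seeing the data.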

Additional observations from a re-analysis of the deposited data

Results flagged for a closer look

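In 100 groups of arrays (25 genes, each replicate in each dye) 7 had a highest or lowest array far from the others, where chance alone would give about 1 in 20. In replicate 1 with the laser RNA in Cy5, *AF020591* had an array at 0.57 with the next at 0.10, *CDR2* one at −0.65 with the next at −0.15, and *R28830_2* one at −1.31 with the next at −0.13. In replicate 1 with the laser RNA in Cy3, *R28830_2* had an array at −0.90 with the next at −0.30, *ELF2* one at −0.19 with the next at 0.13, and *KIAA1542* one at 1.45 with the next at −0.23. The last is the array whose image name marks a second scan. In replicate 2 with the laser RNA in Cy5, *KCNN2* had an array at −2.01 with the next at −1.34.

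Of the 164 genes (of 1503) whose dye ratio passed its adjusted test in limma, 4 belong to the largest calls with opposite signs in the dyes. They were named for that opposition, so that their values are a description. The dye ratio was 1.45 in *FLJ11186* (adjusted p = 1.39e-05), −0.99 in *CDO* (0.000558), −0.86 in *KCNN2* (0.00137) and −0.40 in *HES7* (0.0343).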

How the results depend on the processing

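There were 2 replicates, and the dye ratio was larger than the laser ratio in most genes. Counts moved with many choices and changed little with others, and the causes were not tested. The counts listed here are mainly those that moved. With no array turned the value is the dye ratio, in which a laser ratio cancels. Counts given as unturned therefore describe the dye and not the wound. Adjusted calls over 1.2-fold (0 as reported) were 2 from the deposited table, 10 with laser RNA in Cy3 alone, 87 in Cy5 alone, 164 with no array turned, 3 over 77 arrays, 1 with the methods' t-test over arrays and 4 with header day as a random block, and 0 without either replicate. Unadjusted calls over 1.2-fold (23) were 14 without background correction, 57 with plain subtraction, 41 from the deposited table, 202 in Cy3 alone, 331 in Cy5 alone, 264 unturned, 12 over 77 arrays, 12 with the methods' t-test, 100 on header day 1, 37 on header day 2, 41 without the 4 arrays lacking a replicate in the image name, 57 at any fold, 1 over 1.5-fold, and 33 to 79 without 1 replicate. Genes with 1 sign in all 4 means (113) were 6 at 1.1-fold or more, and 447 to 568 from 1 replicate, where only 2 means must agree. Adjusted dye calls (164) were 4 with plain subtraction, 285 with median centring, 923 from the deposited table, 465 in the fit of 3 hrs alone, 447 and 59 on header days 1 and 2, and 8 to 15 without 1 replicate. Genes with 1 sign on 80% of arrays (8) were 2 without background correction, 5 with median centring, 233 in Cy3 alone, 330 in Cy5 alone, 229 unturned, 41 and 13 on header days 1 and 2, 34 at any fold, 1 over 1.5-fold, 4 at 90% of arrays, and 26 to 35 without 1 replicate. Calls of 3 hrs against earlier times (17) were 5 without background correction, 41 with plain subtraction, 35 with median centring, 7 with the mean over all arrays, 7 with medians within a dye, 72 in Cy3 alone, 99 in Cy5 alone, 90 unturned, 5 over 77 arrays, 7 with header day as a block, 84 and 26 on header days 1 and 2, 36 without the 4 arrays, and 25 to 63 without 1 replicate. The mean over all arrays of a replicate gives no dye means and could not be run for the sign counts.

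Of 2155 alternative values of the named genes, 1653 kept their sign and side of the threshold, and 105 turned sign, 66 of them past the threshold on neither side. The other 39 follow. Those with no array turned are dye ratios, so that their sign is no evidence on the sign of a laser ratio. With no array turned they were *SNAPC4* −0.081, *ZNF75A* −0.0090, *AF020591* −0.033, *R28830_2* 0.018, *CDR2* 0.044, *FLI1* 0.086, *ATF5* −0.37, *CREB1* −0.11, *GLI3* −0.31, *FOG2* −0.20, *SOX10* −0.42, *POU4F1* 0.36, *MYOD1* 0.15, *ATBF1* −0.70, *ATP7B* −0.19 and *IK* −0.012. With Cy3 alone they were *FLJ11186* −0.98, *HES7* 0.011, *CDO* 0.61, *KCNN2* 0.48, *HSF1* 0.43, *HES2* 0.087, *TCF3* 0.39, *DLX3* 0.24, *ZNF232* −0.059, *GCN5L1* 0.23 and *UBB* 0.27. With Cy5 alone they were *ATF5* −0.15, *SOX10* −0.32, *POU4F1* 0.27 and *ATBF1* −0.38. From the deposited table they were *AF020591* −0.0016, *ATF5* −0.16 and *ZNF23* −0.031. Plain subtraction turned *FLI1* (0.15) and *ZNF23* (−0.039), median centring *FLI1* (0.014), header day 2 alone *AF020591* (−0.059), and leaving out replicate 2 *ATP7B* (−0.048, and 0.74 without replicate 1).

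With the replicate number as a block there were 0 adjusted calls, 25 unadjusted calls, 175 dye calls and 16 calls against earlier times. Deviations of same-numbered replicates correlated between −0.25 and 0.17 across time points. With 2 replicates at each time, such values cannot settle whether the numbers pair the samples.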
